A study of Mus musculus with 24 samples.

Results

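Tumours collected 48 h after the second of 2 weekly doses of RMC-6272 were compared with tumours of vehicle-treated mice. The comparison rests on the 3 libraries titled for RMC-6272 at 48 h and the 3 for vehicle, 6 of the 24 libraries of the series, and on the 12164 of 54403 genes with an FPKM (fragments scaled by gene length and library size) of at least 1 in at least 2 of these 6. All mice were FVB/N and carried Lap-tTA/Tet-O-MYC, in which a tetracycline-controlled activator driven by a liver promoter in hepatocytes turns on a human MYC gene. Doxycycline, which keeps the transgene silent, was withdrawn at 4 weeks of age, and liver tumours were followed by imaging from 4 to 5 weeks later. The RMC-6272 mice received 10 mg/kg into the peritoneum, and a second dose 7 days after the first. The vehicle mice received the solvent mixture of Transcutol, Solutol HS 15 and water on the same schedule. Vehicle tumours were collected at 24 h alone, so drug and collection time cannot be told apart in this comparison. Each library came from frozen hepatocellular carcinoma tissue, and the labels do not say whether replicates are separate animals. A p-value here measures spread between samples, estimated within the groups of all 24 libraries and not from these 6 alone. RMC-6272 libraries of 24 and 72 h (3 each) and sorafenib libraries of 48 h (2) are given beside them where they help to place a value.

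RMC-6272 is described in the series title as a bi-steric inhibitor selective for mTORC1. This kinase complex couples amino acids, growth factors and energy to protein synthesis, ribosome production, nucleotide and lipid synthesis, and it holds back autophagy and lysosome production. One of its substrates is 4E-BP1, encoded by Eif4ebp1, which in its unphosphorylated form blocks the cap-binding factor eIF4E. MYC drives many of the same growth programmes in transcription, and MYC liver tumours lose mature hepatocyte functions and resemble fetal liver.

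The 48 h libraries held 35.0 M to 38.5 M reads and the vehicle libraries 31.1 M to 38 M, recovered from the smallest steps between FPKM values. These totals cover counting error only. The 3 libraries of the 48 h group differed among themselves. Over 38 gene lists, the list median lay farthest from the vehicle mean in replicate 1 in 27 and nearest in replicate 3 in 22. Replicates 1 and 2 share the first part of their description code, and replicate 3 has another. Globin reads also split them: Hbb-bs, an adult beta globin, stood at 104, 129 and 25.8 FPKM in vehicle and at 5.99, 3.55 and 215 FPKM at 48 h, so replicates 1 and 2 lay below every vehicle library and replicate 3 above. Near-identical globin copies make these levels uncertain. Hepatocyte identity was present throughout, with albumin (Alb) at 2849, 1425 and 732 FPKM in vehicle and 3441, 2284 and 6867 FPKM at 48 h. The mouse Myc entry, which does not measure the human transgene as such, was at 2.02, 1.73 and 1.14 FPKM in vehicle and 5.76, 2.51 and 2.56 FPKM at 48 h (log2 difference 0.75 ± 0.39, limma adjusted p = 0.357).

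At 48 h few genes passed the test, while many more lay outside the vehicle range. With limma on log2(FPKM + 1), a scale that understates the change of low genes, 4 genes rose and 4 fell at a Benjamini-Hochberg adjusted p under 0.05 (0.0329% of genes tested in each direction). A further 54 genes had an adjusted p between 0.05 and 0.06, and at an adjusted p under 0.10 there were 129 higher (1.06%) and 77 lower (0.633%). At an unadjusted p under 0.05, 989 were higher (8.13%) and 933 lower (7.67%). Counts of list genes at that p below are to be read beside these 2 shares. In 1617 genes (13.3%) all 48 h libraries lay above all vehicle libraries, and in 2308 (19%) below. The median of all genes tested was -0.05 on the log2 scale, with 5370 genes above 0 and 6794 below. Counts of list genes by sign below are to be read beside these. The counts past the threshold depended on single libraries: 0 and 0 without vehicle replicate 3, 1 higher and 2 lower without vehicle replicate 1, 0 and 1 without 48 h replicate 1, and 98 and 26 without 48 h replicate 3. Leaving out 72 h libraries, which enter only through the shared spread, gave 144 and 88, 199 and 136, or 94 and 57 for replicates 1, 2 and 3, and without 24 h replicate 1 or 3 there were 2 higher in either case.

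**Figure D1:**
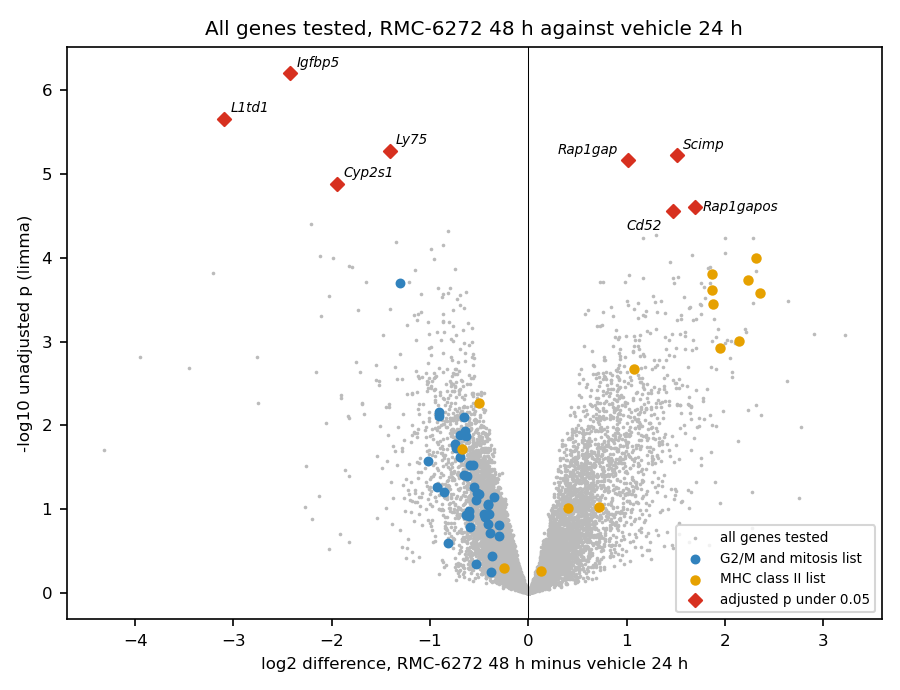
All 12164 genes tested are plotted by log2 difference between RMC-6272 48 h and vehicle 24 h (x axis) and by -log10 of the unadjusted limma p (y axis). The 8 genes past the threshold are red diamonds, the MHC class II genes (orange) lie mostly to the right, and all 40 genes of the G2/M list (blue) lie to the left of 0.

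The 4 genes that fell are a growth factor binding protein, a retrotransposon-derived RNA-binding protein, a cytochrome P450 and an endocytic receptor. Igfbp5, a secreted protein that binds insulin-like growth factors, was at 15.7, 12.1 and 23.6 FPKM in vehicle and at 4.47, 1.78 and 1.30 FPKM at 48 h (-2.42 ± 0.32 SE on the log2 scale, adjusted p = 0.00762 by limma). L1td1, which derives from a LINE-1 element and is known from pluripotent cells, was at 14, 10.5 and 12.9 FPKM in vehicle and at 0.072, 0.958 and 0.836 FPKM at 48 h (-3.10 ± 0.44, adjusted p = 0.0134 by limma). In both genes the groups did not overlap. Cyp2s1, a cytochrome P450 of epithelia outside the liver, went from 3.44, 2.97 and 5.33 FPKM to 0.133, 0.300 and 0.321 FPKM (-1.95 ± 0.32, adjusted p = 0.0265 by limma). Ly75, the endocytic receptor DEC-205 of dendritic cells and some epithelia, went from 4.26, 2.40 and 3.66 FPKM to 0.414, 0.866 and 0.689 FPKM (-1.41 ± 0.22, adjusted p = 0.0168 by limma). Both groups were again separate in every library. Of the 9 tested genes on the dendritic cell list, which does not hold Ly75, 7 had a positive difference. In the 2 sorafenib libraries of 48 h, Ly75 was at 3.29 and 3.06 FPKM, within the vehicle range, while Igfbp5, at 4.6 and 8.13 FPKM, and L1td1, at 3.47 and 7.46 FPKM, lay between vehicle and RMC-6272.

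The 4 genes that rose include 2 of leukocytes. Scimp, a membrane adaptor of antigen-presenting cells, was at 1.22, 1.13 and 0.328 FPKM in vehicle and at 4.71, 5.29 and 3.06 FPKM at 48 h (1.51 ± 0.23, adjusted p = 0.0168 by limma). Cd52, a short glycoprotein on the surface of leukocytes, was at 7.11, 10.2 and 6.12 FPKM in vehicle and at 22.3, 32.7 and 16.4 FPKM at 48 h (1.47 ± 0.26, adjusted p = 0.0426 by limma). The lowest 48 h library stood above the highest vehicle library in both. Rap1gap, which switches off the small GTPase Rap1, went from 1.13, 1.42 and 1.24 FPKM to 4.37, 3.16 and 3.26 FPKM (1.02 ± 0.16, adjusted p = 0.0168 by limma). Rap1gapos, from 1.01, 1.16 and 0.636 FPKM to 6.67, 5.56 and 3.75 FPKM (1.69 ± 0.30, adjusted p = 0.0426 by limma), overlaps it on the opposite strand. The library kit does not mark strand as far as the labels say, so reads of Rap1gap and Rap1gapos cannot be told apart. In the sorafenib libraries of 48 h, Scimp (0.977 and 0.956 FPKM), Rap1gap (1.37 and 0.982 FPKM) and Cd52 (4.63 and 4.06 FPKM) lay within or below the vehicle range, and Rap1gapos (1.76 and 1.58 FPKM) lay above it and below every RMC-6272 48 h library. Over 16 alternative settings Igfbp5 passed in 14, L1td1 in 12, Ly75, Scimp and Rap1gap in 11 each, Cyp2s1 in 10, Cd52 in 8 and Rap1gapos in 7, and none changed direction. Each of these genes also passed the threshold in the same direction at 24 h and at 72 h of RMC-6272 against the same vehicle libraries. L1td1 differed by -3.54 at 24 h and -2.92 at 72 h, and Rap1gap by 1.36 and 1.04.

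**Figure D2:**
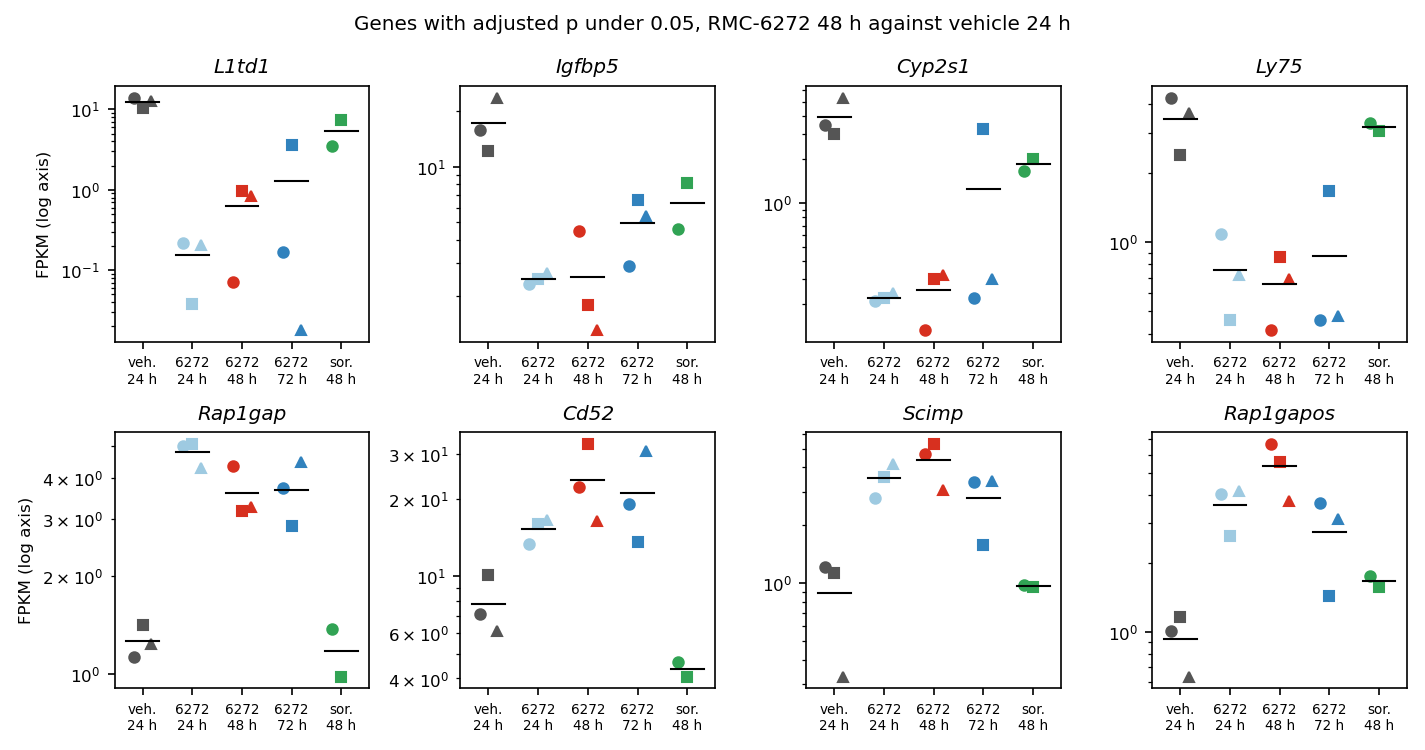
FPKM (log axis) of the 8 genes with adjusted p under 0.05 in each library of vehicle 24 h (veh.), RMC-6272 at 24, 48 and 72 h (marked by its number) and sorafenib 48 h (sor.); circles, squares and triangles are replicates 1, 2 and 3, and bars are group means. The red 48 h points do not overlap the grey vehicle points in any of the 8 genes.

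Just short of the threshold stood a row of genes with adjusted p slightly above 0.05, given here as values. Among those higher at 48 h, F11, coagulation factor XI made by hepatocytes, was at 3.22, 1.65 and 0.559 FPKM in vehicle and 21.6, 7.63 and 9.31 FPKM at 48 h (2.28 ± 0.43). Abca1, which exports cholesterol, was at 6.65, 7.04 and 4.75 FPKM against 26.7, 20.2 and 13.2 FPKM. Fkbp10, an endoplasmic reticulum protein that helps fold collagen, was at 1.36, 1.35 and 2.22 FPKM against 22.6, 8.25 and 9.13 FPKM. Others of this row with no overlap were Adora1, the adenosine A1 receptor (2 ± 0.39), Hao2, a peroxisomal oxidase (1.66 ± 0.33), Capn2, a calpain subunit (1.47 ± 0.31), Mustn1 (1.82 ± 0.37) and Vill (1.44 ± 0.29). Among those lower at 48 h, Crabp2, which binds retinoic acid, was at 23.4, 28.2 and 19.9 FPKM in vehicle and 0.432, 5.16 and 1.14 FPKM at 48 h (-3.21 ± 0.66, adjusted p = 0.0516 by limma). Smpdl3b, a membrane phosphodiesterase, was at 22.8, 22.2 and 26.7 FPKM against 3.66, 6.26 and 4.56 FPKM. Abcd4, a lysosomal carrier in vitamin B12 handling, was at 11.5, 12.8 and 11 FPKM against 2.35, 2.54 and 1.79 FPKM. The amino acid carriers Slc7a8 (-1.79 ± 0.36) and Slc16a10 (-1.65 ± 0.35) were also lower in every 48 h library, as were Clps (-2.21 ± 0.40), Glis1 (-1.83 ± 0.37) and Rnd2 (-1.15 ± 0.24). Adora1 and Mustn1 reached 1 FPKM in 2 libraries at 48 h only and Clps in vehicle only, so these were tested because of the group where they were high, as were L1td1, Cyp2s1 and Ly75 above.

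Genes of MHC class II presentation were the list with the largest median difference among the 38 lists examined. MHC class II molecules display peptides from engulfed material to CD4+ T cells. Their genes share promoter elements, the X and Y boxes, and need the coactivator Ciita. Ciita acts through the factors Rfx5, Rfxap and Rfxank bound to the X box. Of 19 genes in the list 15 passed the filter on low values. To show these elements, the 150 bases before the RefSeq start of 3 members (GRCm38.p6) follow, 5′ to 3′ in the direction of the gene, with capitals at matches on either strand to the Y box core letters GATTGG and, where present, the X box core letters AACNGATG. The H2-Aa stretch is chr17:34287824-34287973 on the minus strand, that of H2-Eb1 chr17:34305717-34305866 on the plus strand and that of H2-DMb1 chr17:34153041-34153190 on the plus strand.
H2-Aa: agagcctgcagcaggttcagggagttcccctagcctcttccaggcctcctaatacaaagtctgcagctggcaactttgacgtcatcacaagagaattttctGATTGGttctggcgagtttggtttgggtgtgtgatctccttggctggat
H2-Eb1: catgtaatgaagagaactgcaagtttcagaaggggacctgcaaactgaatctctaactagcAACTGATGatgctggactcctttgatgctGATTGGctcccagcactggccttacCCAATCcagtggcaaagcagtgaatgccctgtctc
H2-DMb1: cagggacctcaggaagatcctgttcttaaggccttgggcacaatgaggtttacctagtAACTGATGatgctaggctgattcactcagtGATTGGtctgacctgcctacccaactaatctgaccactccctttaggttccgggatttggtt
No matches overlapped one another. In the full RefSeq windows of 300 bases (250 before to 50 after the start), which 10 of the 15 tested list genes had, GATTGG was found in 7 and AACNGATG in 4. Of 8873 tested genes with a window, 23.7% held GATTGG and 1.98% AACNGATG. A match is a run of letters and not a measured site.

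The chains of the class II molecule were higher at 48 h in every library. H2-Ab1, a beta chain, was at 11.9, 38.3 and 9.31 FPKM in vehicle and 130, 78.6 and 60.4 FPKM at 48 h (2.31 ± 0.46, adjusted p = 0.0516 by limma). H2-Aa, its alpha chain, was at 4.77, 10.5 and 2.59 FPKM against 33.7, 26.6 and 20.48 FPKM (2.14 ± 0.54). H2-Eb1 was at 0.755, 2.06 and 0.897 FPKM against 10.1, 7.53 and 4.26 FPKM (1.87 ± 0.40). Vehicle replicate 2 was the highest vehicle library in each, and it still lay below the lowest 48 h library. The same held for the invariant chain Cd74, at 115, 292 and 73.4 FPKM against 965, 656 and 535 FPKM (2.36 ± 0.51), and for the peptide loading chains H2-DMa (1.87 ± 0.39), H2-DMb1 (1.95 ± 0.50) and H2-DMb2 (1.88 ± 0.42). The last 2 are near copies whose reads may be split uncertainly. Ctss, the protease that trims the invariant chain, was at 42.2, 50.6 and 35.0 FPKM against 326, 230 and 110 FPKM (2.23 ± 0.47). Ciita itself was at 0.265, 0.641 and 0.186 FPKM against 2.27, 1.96 and 1.38 FPKM (1.08 ± 0.30). It was under 1 FPKM in every vehicle library and so was tested through its 48 h values only.

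Other members went the other way or stayed within the vehicle range. Rfx5 was lower in every 48 h library, at 2.76, 2.28 and 2.49 FPKM against 1.13, 1.55 and 1.76 FPKM (-0.51 ± 0.16), and so was Ifi30, a lysosomal thiol reductase, at 106, 159 and 138 FPKM against 102, 95.7 and 58.1 FPKM (-0.67 ± 0.26). Rfxap (-0.25 ± 0.37), Rfxank (0.13 ± 0.21), Cd86 (0.40 ± 0.23) and the protease Lgmn (0.71 ± 0.40) overlapped between groups. No class II gene passed the threshold at 48 h. Of 15 tested, 9 were higher and 2 lower at an unadjusted p under 0.05, and 8 were higher at an adjusted p under 0.10, where 1.06% of all genes were. Of the 9, Ciita and H2-Eb1 passed the filter through the 48 h libraries only and 7 did not depend on it. The list median was 1.87, and 2.36, 1.86 and 1.21 in 48 h replicates 1, 2 and 3 against the vehicle mean. Under the 16 alternatives the number higher at an unadjusted p under 0.05 was 9 to 11 and the number lower 1 or 2, with 1 lower under quantile normalization and without 48 h replicate 3 or vehicle replicate 2.

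**Figure D3:**
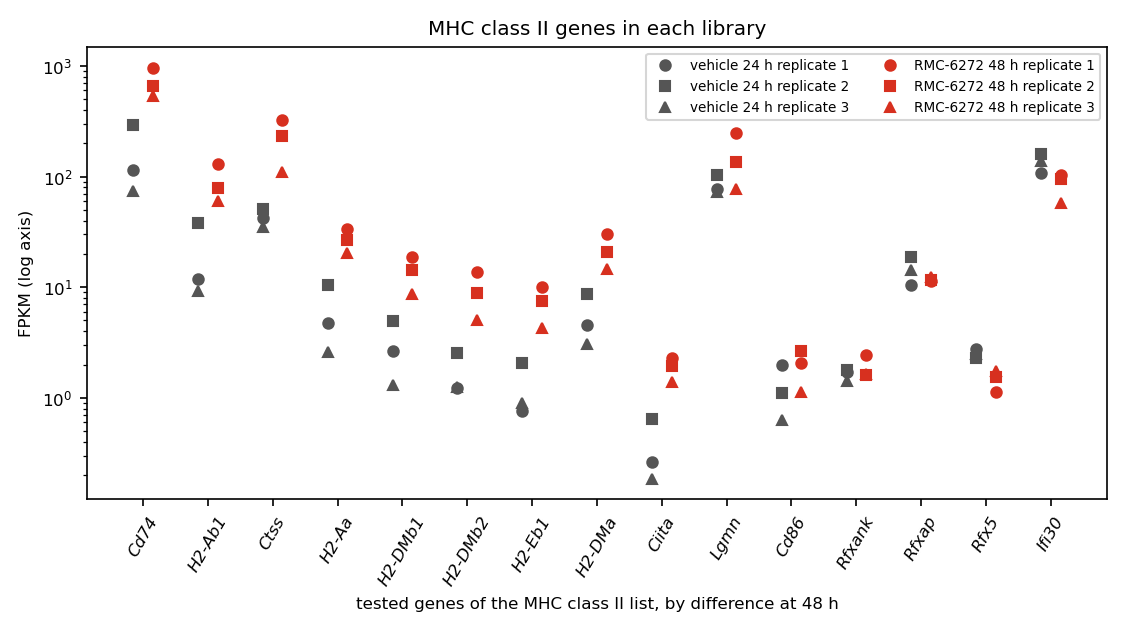
FPKM (log axis) of the 15 tested MHC class II list genes in each vehicle 24 h (grey) and RMC-6272 48 h (red) library; circles, squares and triangles are replicates 1, 2 and 3. From Cd74 to Ciita all red points lie above all grey points, and Rfx5 and Ifi30 lie the other way.

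Leukocyte markers were higher beside the class II genes, and their part in that difference was not tested. In bulk tissue, more cells of a type and more RNA per cell cannot be told apart. Of 20 pan-leukocyte genes 19 were tested, and all 19 had a positive difference. Of the 19, 4 passed the filter through the 48 h libraries only and so were tested because they were high there. At an unadjusted p under 0.05, 16 (84.2%) were higher, Cd52 alone past the threshold, and 2 of the 16 passed the filter through the 48 h libraries only. The list median was 0.95, with 1.49, 1.15 and 0.42 in the 3 libraries at 48 h. The summed level of the list was 216 to 583 FPKM against 125 to 207 FPKM in vehicle. No gene of the list was at 0 in all libraries. Cd48, a surface protein of most leukocytes, was at 7.23, 5.28 and 3.57 FPKM in vehicle and 27.2, 21.7 and 10.3 FPKM at 48 h (1.65 ± 0.37, adjusted p = 0.0620 by limma). Ptprc, the common leukocyte antigen CD45, was at 0.919, 0.676 and 0.332 FPKM against 2.45, 2.63 and 1.36 FPKM (0.93 ± 0.48). It was tested through these 48 h values only. The count of 16 was 5 without 48 h replicate 1 and 6 without vehicle replicate 3.

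The lists of single leukocyte types differed in size and in how many members were detected. Of 22 tested macrophage and Kupffer genes, 9 (40.9%) were higher at an unadjusted p under 0.05 and 0 lower (median 0.87). The summed level of the list was 843 to 2563 FPKM against 631 to 961 FPKM in vehicle. Without 48 h replicate 1 the count was 5, and 1 of the 9 passed the filter through the 48 h libraries only. Csf1r, the receptor for colony stimulating factor 1, was at 8.36, 9.55 and 4.95 FPKM in vehicle and 30.9, 26.2 and 10.8 FPKM at 48 h (1.37 ± 0.45), and Trem2 at 0.367, 1.88 and 2.83 FPKM against 23.2, 6.73 and 3.28 FPKM (1.91 ± 0.53). The Fc receptor Fcgr1 (1.13 ± 0.28) also showed no overlap. Of 9 tested dendritic cell genes 6 were higher, or 2 without 48 h replicate 1, among them the integrin Itgax (CD11c), at 0.947, 1.34 and 0.675 FPKM against 6.04, 3.61 and 2.54 FPKM (1.30 ± 0.24, adjusted p = 0.0512 by limma), and Cd83 (2.07 ± 0.52). Of these 6 genes 4, Itgax included, reached 1 FPKM in 2 libraries at 48 h only and so were tested because they were high there. The summed level of the dendritic cell list went the other way, at 315 to 518 FPKM in vehicle and 184 to 367 FPKM at 48 h. Of 15 neutrophil genes 4 were tested, 3 of them through the 48 h libraries only, with 0 past an unadjusted p of 0.05 by limma and a median of 1.01. Of 6 tested B and plasma cell genes 2 were higher, both tested through the 48 h libraries only. T cell markers were scarce: 5 of 20 passed the filter and 14 stayed under 1 FPKM in all 6 libraries, with 1 higher at an unadjusted p under 0.05. Cd8a, the CD8 alpha chain, was at 0.166, 0.0177 and 0.0674 FPKM in vehicle and 0.196, 0.225 and 0.0644 FPKM at 48 h and was not tested. Of 4 tested NK cell genes 2 were higher, among them Ccl5, which stood at 21.0 FPKM in 48 h replicate 2 and at 5.33 and 4.96 FPKM in the others (1.01 ± 0.44). Of these 2 NK cell genes 1 was tested through the 48 h libraries only. No NK cell gene was higher at an unadjusted p under 0.05 without 48 h replicate 2 or without vehicle replicate 2 or 3.

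Class I presentation and checkpoint genes moved less. Of 24 tested MHC class I genes, 4 (16.7%, where 8.13% of all genes were) were higher at an unadjusted p under 0.05 and 0 lower (median 0.38). H2-M3 led them, at 2.67, 3.11 and 1.36 FPKM in vehicle and 8.46, 8 and 4.12 FPKM at 48 h (1.20 ± 0.37). H2-D1, a classical heavy chain with near-identical relatives and so of uncertain level, was at 139, 157 and 68.5 FPKM against 318, 261 and 164 FPKM (1.06 ± 0.43). The class I count was 1 without vehicle replicate 3 and 2 without 48 h replicate 1 or 2. Of 38 tested interferon response genes, 1 was higher (2.63%, below the 8.13% of all genes) and 0 lower (median -0.09). That gene, Irf8, is also a dendritic cell marker. Cd274, which encodes PD-L1, was at 1.68, 2.58 and 0.504 FPKM against 2.72, 3.81 and 2 FPKM, with overlap (0.63 ± 0.41, adjusted p = 0.480 by limma). Of 11 tested checkpoint genes 4 were higher (36.4%), or 2 without 48 h replicate 1 or vehicle replicate 3. Of these 4 genes 1 passed the filter through the 48 h libraries only. Among the 4 were Cd47, the signal that restrains phagocytes, at 8.84, 7.85 and 5.62 FPKM against 16.6, 13.8 and 11.6 FPKM (0.84 ± 0.28), and Vsir (1.31 ± 0.52).

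Genes of cell division were lower at 48 h by small amounts that fell short of the threshold. All 40 genes of the G2/M list had a negative difference (median -0.59), 15 at an unadjusted p under 0.05, and in 30 the 48 h libraries lay below all vehicle libraries, where 19% of all genes did. Replicate 1 stood lowest, with a list median of -0.93 against -0.40 and -0.34 in replicates 2 and 3. Nek2, a centrosomal kinase, was at 25.8, 24.9 and 25.5 FPKM in vehicle and 8.16, 7.17 and 15.1 FPKM at 48 h (-1.31 ± 0.28, adjusted p = 0.0516 by limma). Cdc20, the activator of the anaphase-promoting complex, was at 116, 156 and 141 FPKM against 57.5, 75.8 and 86.2 FPKM (-0.91 ± 0.30). Mki67, the source of the Ki-67 proliferation marker, overlapped, at 23.9, 20 and 24.9 FPKM against 12.8, 20.2 and 20.6 FPKM (-0.36 ± 0.39, adjusted p = 0.734 by limma). The S phase list was alike, with 41 of 45 genes below 0 (median -0.44), 15 at an unadjusted p under 0.05 and 32 without overlap. Pole2, a DNA polymerase epsilon subunit, was at 7.35, 5.59 and 5.97 FPKM against 2.06, 2.91 and 4.22 FPKM (-0.87 ± 0.19), and Pcna, the replication clamp, at 104, 101 and 123 FPKM against 48.5, 72.9 and 80.6 FPKM (-0.72 ± 0.24). The 2 counts of 15 were each 3 without 48 h replicate 1, 8 (G2/M) and 9 (S phase) without vehicle replicate 1 and 2 respectively, and 9 and 8 without vehicle replicate 3. In a fit of the 6 libraries alone they were 25 and 29, and the S phase count was 26 in a fit of 20 libraries and 23 with the code as a random block.

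Placed between 24 h and 72 h, the cell division lists had their smallest median difference from vehicle at 48 h. Between RMC-6272 48 h and 24 h limma called 0 genes, with 965 higher (7.93%) and 521 lower (4.28%) at an unadjusted p under 0.05. Of the 40 G2/M genes 36 were among the higher ones, with a median of 1.01 above 24 h, and of 45 S phase genes 35 (median 0.75). Cdc20 stood 1.08 above its 24 h level (adjusted p = 0.156 by limma). Between 48 h and 72 h limma also called 0 genes, with 867 higher (7.13%) and 813 lower (6.68%) at an unadjusted p under 0.05, and 5 G2/M genes were higher at 48 h. Of the 15 class II genes 1 was higher at 48 h than at 24 h at an unadjusted p under 0.05. That gene was H2-Ab1, at 34.6, 32.9 and 43.5 FPKM at 24 h and 120, 43.1 and 37.8 FPKM at 72 h. Against the same vehicle libraries the class II median was 1.12 at 24 h, 1.87 at 48 h and 1.13 at 72 h, and the G2/M median -1.61, -0.59 and -0.87. Past the threshold 4 class II genes were higher and 1 lower at 24 h, and 6 and 1 at 72 h, against 0 at 48 h. At an unadjusted p under 0.05, 10 were higher at 24 h and 9 each at 48 and 72 h. Of the 40 G2/M genes 38 were lower past the threshold at 24 h and 21 at 72 h. Of all 12164 genes 1245 were higher and 1749 lower past it at 24 h, and 729 and 985 at 72 h. The 3 times share their vehicle libraries, so their differences from vehicle are not independent. Leaving out 1 library moved the 0 of 48 h against 24 h to 73 (24 h replicate 3) or 115 (48 h replicate 1), and that of 48 h against 72 h to 470 (72 h replicate 1) or 2 (72 h replicate 2).

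**Figure D4:**
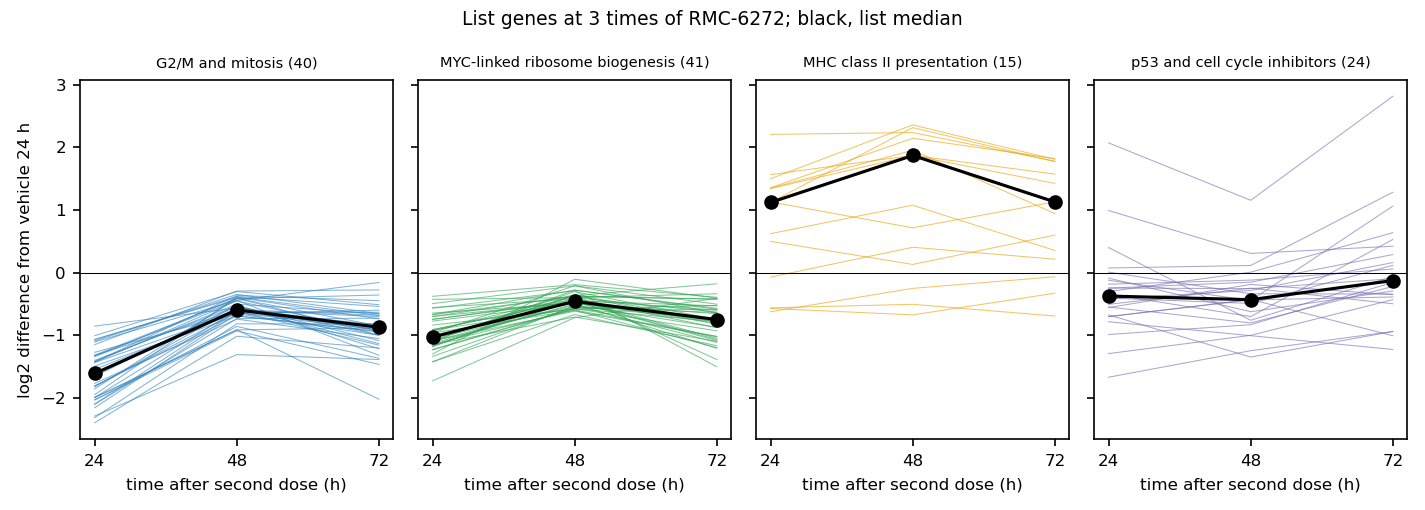
Log2 difference from vehicle 24 h at 24, 48 and 72 h after the second dose of RMC-6272, 1 thin line per gene for 4 lists (number of genes in brackets), with the list median in black. The G2/M median goes from -1.61 to -0.59 and -0.87, and the MHC class II median from 1.12 to 1.87 and 1.13.

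Growth programmes linked to MYC were lower by similar amounts. All 41 tested ribosome biogenesis genes had a negative difference (median -0.46), with 9 lower (22%) at an unadjusted p under 0.05. In 26 the 48 h libraries lay below all vehicle libraries, where 19% of all genes did. Bop1, which processes ribosomal RNA for the large subunit, was at 67.9, 94.9 and 59.7 FPKM in vehicle and 39.3, 44.8 and 48.8 FPKM at 48 h (-0.71 ± 0.27), and Nop2, a ribosomal RNA methyltransferase, at 88.2, 118 and 113 FPKM against 61.9, 75.3 and 75.1 FPKM (-0.57 ± 0.25). Nolc1, a nucleolar chaperone, was at 130, 159 and 142 FPKM against 68.7, 106 and 98.0 FPKM. In each the highest 48 h library lay below the lowest vehicle library. The count of 9 was 0 without 48 h replicate 1, 4 without 48 h replicate 3, and 1 and 4 without vehicle replicates 2 and 3. It was 24 in a fit of the 6 libraries alone, 19 in a fit of 20 libraries and 3 after quantile normalization. MYC binds the E-box letters CACGTG. They are capitals in the 150 bases before the RefSeq start of Nop2 (GRCm38.p6, chr6:125131733-125131882, plus strand). Of the 7 list genes with these letters in their window, Nop2 alone had all 48 h libraries below vehicle and a match in these 150 bases. It was thus picked by its level in these same data.
Nop2: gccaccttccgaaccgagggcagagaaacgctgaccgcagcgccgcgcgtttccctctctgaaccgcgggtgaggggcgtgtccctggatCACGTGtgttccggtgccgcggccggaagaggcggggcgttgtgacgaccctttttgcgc
CACGTG reads the same on both strands. It occurred in the windows of 7 of 36 list genes that had one (19.4%) and in 12.1% of all tested genes with a window.

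Enzymes of nucleotide and one-carbon metabolism were lower too. Of 30 genes 29 had a negative difference (median -0.47), 12 at an unadjusted p under 0.05, or 3 without 48 h replicate 1 and 6 without vehicle replicate 3. Mthfd2, the mitochondrial folate enzyme that is a target of both MYC and the transcription factor ATF4, was at 26.3, 32.3 and 27.5 FPKM in vehicle and 2.61, 8.90 and 9.64 FPKM at 48 h (-2.03 ± 0.45, adjusted p = 0.0590 by limma). Gart, a purine synthesis enzyme, was at 44.5, 45.4 and 37.2 FPKM against 18.8, 26.6 and 31.4 FPKM, and Rrm2, the inducible subunit of ribonucleotide reductase, at 50.2, 60.6 and 41.2 FPKM against 18.3, 30.5 and 29.2 FPKM. All 3 were lower in every 48 h library. Of 38 tested translation factors 4 were lower (10.5%, where 7.67% of all genes were; median -0.32), with a summed level of 7868 to 8952 FPKM in vehicle and 7817 to 8629 FPKM at 48 h, led by Eif2b1 (-0.87 ± 0.30), or 0 without 48 h replicate 1, 2 without 48 h replicate 2 or vehicle replicate 2, and 1 without vehicle replicate 3. Eif4e, the cap-binding factor, was at 44.1, 39.4 and 41.7 FPKM against 20.9, 38.1 and 33.1 FPKM (-0.47 ± 0.31), with replicate 1 far below the other 2.

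Genes of amino acid supply were lower more often than those of the mTORC1 pathway itself, a difference that was not tested. Of 29 tested ATF4 targets and amino acid synthesis genes, 9 were lower at an unadjusted p under 0.05 and 0 higher (median -0.41). Aldh18a1, which makes proline from glutamate, was at 31.7, 26.9 and 30.1 FPKM in vehicle and 8.41, 14.7 and 16.1 FPKM at 48 h (-1.16 ± 0.27). Slc7a1, a carrier of cationic amino acids, was at 14.9, 13.5 and 12.6 FPKM against 4.11, 7.76 and 7.41 FPKM (-1.02 ± 0.28), and Slc38a2, a glutamine carrier, at 26.4, 19.5 and 20.3 FPKM against 11.3, 15.5 and 14.2 FPKM (-0.65 ± 0.16). Neither overlapped with vehicle. Sesn2, a leucine sensor that restrains mTORC1, was at 11.5, 13.5 and 11.2 FPKM against 5.38, 4.98 and 3.70 FPKM (-1.21 ± 0.26, adjusted p = 0.0516 by limma). Its relative Sesn3 (-0.57 ± 0.17), the arginine sensor relative Castor2 (-1.04 ± 0.39) and the Rheb relative Rhebl1 (-0.49 ± 0.21) were lower as well. Mitf, a transcription factor of the family that drives lysosome genes, was the 1 pathway member higher at an unadjusted p under 0.05 and was tested through its 48 h values only, at 0.259, 0.441 and 0.316 FPKM against 1.83, 1.49 and 0.730 FPKM (0.78 ± 0.21). The kinase Mtor (-0.07 ± 0.40) and Eif4ebp1 (-0.32 ± 0.29) overlapped with vehicle. Over the 49 tested components the median was -0.10, with 1 higher (2.04%) and 4 lower (8.16%), beside 8.13% and 7.67% of all genes tested, or 2 lower without vehicle replicate 3 and 2 higher without 48 h replicate 1 or vehicle replicate 2. Of the 4 lower genes 1 passed the filter through the vehicle libraries only.

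In the insulin and IGF axis 1 of 18 tested genes was lower at an unadjusted p under 0.05, Igfbp5, and 1 higher, Igfbp7 (5.56% each, below the 7.67% and 8.13% of all genes; median 0.07). Igfbp7, which is also made by vessel and stromal cells, was at 47.4, 45.3 and 65.5 FPKM in vehicle and 214, 92.4 and 79.4 FPKM at 48 h (1.14 ± 0.41). Igf2, the fetal growth factor, was at 17.2, 9.13 and 15.0 FPKM against 18.4, 7.30 and 34.0 FPKM (0.31 ± 0.65), and the receptors Insr (0.08 ± 0.21) and Igf2r (-0.30 ± 0.30) did not pass it. Grb10, an adaptor that mTORC1 phosphorylates and that dampens insulin signalling, was at 6.04, 10.0 and 2.90 FPKM against 5.98, 15.0 and 22 FPKM, so replicate 1 lay within the vehicle range and replicates 2 and 3 above it (1.03 ± 0.51).

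The list median of glycolysis lay below vehicle in all 3 libraries at 48 h, and that of sterol synthesis in 2. Of 21 glycolysis genes 6 were lower (28.6%) at an unadjusted p under 0.05 and 0 higher (median -0.51), or 3 lower without 48 h replicate 1 or without vehicle replicate 2. Slc16a3, the lactate exporter MCT4, was at 29.6, 61.2 and 6.19 FPKM in vehicle and 0.478, 2.49 and 1.04 FPKM at 48 h (-3.45 ± 0.95). Pkm, the pyruvate kinase of growing and non-hepatocyte cells, was at 280, 478 and 256 FPKM against 77.6, 121 and 79.8 FPKM (-1.82 ± 0.82), and the phosphofructokinase Pfkp at 7.70, 9.74 and 8.39 FPKM against 1.73, 2.98 and 2.76 FPKM (-1.47 ± 0.36). The groups were separate in these 3 genes. All 24 tested cholesterol synthesis genes had a negative difference (median -0.72), yet the list median was -1.28 and -1.21 in replicates 1 and 2 and 0.44 in replicate 3. Idi1, which isomerises the isoprenoid precursor, was at 16.9, 8.30 and 9.08 FPKM in vehicle and 2.21, 2.26 and 13.2 FPKM at 48 h. Dhcr7, the last enzyme on the path to cholesterol, was at 35.2, 39.2 and 53.2 FPKM against 12.5, 12.9 and 40.1 FPKM. In both genes replicate 3 lay inside the vehicle range and the other 2 below it. Thus 4 sterol genes were lower at an unadjusted p under 0.05, 20 without 48 h replicate 3, 0 without replicate 1 or 2, and 2 without vehicle replicate 3. Fatty acid synthesis split the same way, with list medians of -0.73, -0.67 and 0.38, and Fasn, fatty acid synthase, was at 65.6, 88.8 and 96.4 FPKM against 27.9, 34.1 and 66.4 FPKM.

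Several p53 target genes were lower. Of 24 tested genes of p53 and cell cycle inhibition, 6 were lower (25%) and 1 higher (4.17%) at an unadjusted p under 0.05. The list median was -0.43, with -0.43, -0.20 and -0.59 in the 3 libraries. Ccng1, cyclin G1, was at 45.2, 40.5 and 37.1 FPKM in vehicle and 14.5, 20.8 and 12.2 FPKM at 48 h (-1.35 ± 0.26, adjusted p = 0.0516 by limma). Zmat3, an RNA-binding p53 target, was at 5.06, 4.90 and 2.84 FPKM against 1.28, 2.06 and 1.43 FPKM (-1.01 ± 0.25), and Bax, which opens the mitochondrial membrane in apoptosis, at 74.5, 133 and 90.9 FPKM against 50.6, 61.8 and 52.8 FPKM (-0.80 ± 0.30). None of the 3 overlapped with vehicle. Trp53inp1 was at 10.0, 7.21 and 7.09 FPKM against 5.13, 4.94 and 3.14 FPKM (-0.76 ± 0.29), and Pmaip1, which encodes NOXA, differed by -0.83 ± 0.39. Trp53inp1 stood 1.16 below its own 24 h level (unadjusted p = 0.001 by limma) and Ccng1 0.67 below (adjusted p = 0.295 by limma), where 0 genes passed the threshold. These were the 2 of 24 list genes lower than at 24 h at an unadjusted p under 0.05, with 0 higher. The list median stood 0.02 above 24 h. The count of 6 was 3 without vehicle replicate 2.

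Hepatocyte lists differed from each other. Fatty acid oxidation and PPARA target genes had a positive difference in 38 of 39 tested (median 1.01), with 13 higher at an unadjusted p under 0.05, 0 lower and 21 above all vehicle libraries, where 13.3% of all genes were. Of the 39 genes 6 passed the filter through the 48 h libraries only, and 2 of the 13 were among these 6. The list median was 1.36, 0.42 and 1.06 in replicates 1, 2 and 3. Acadl, a mitochondrial acyl-CoA dehydrogenase, was at 61.2, 58.8 and 56.5 FPKM in vehicle and 181, 128 and 162 FPKM at 48 h (1.39 ± 0.35). Ehhadh, a peroxisomal enzyme, was at 10.6, 4.12 and 6.58 FPKM against 77.7, 15.3 and 42.5 FPKM (2.32 ± 0.73). Every 48 h library lay above vehicle in both genes, with replicate 2 the lowest in each. Of 43 plasma protein genes 10 were higher (23.3%) and 0 lower (median 0.64), and of 22 without overlap 21 lay above all vehicle libraries and 1 below. Ahsg, which encodes fetuin-A, was at 528, 308 and 73.5 FPKM against 3200.1, 1126 and 1408 FPKM (2.90 ± 0.71), and Apoe at 1391, 2552 and 1475 FPKM against 6110.0, 3482.5 and 3105 FPKM (1.22 ± 0.43). Both were higher in every 48 h library, while Alb overlapped (1.39 ± 0.72, adjusted p = 0.361 by limma). Without 48 h replicate 1 the counts were 4 for fatty acid oxidation and 5 for plasma proteins, and without vehicle replicate 3 the former was 6. Of 28 tested bile acid and drug metabolism genes 2 were higher (7.14%, below the 8.13% of all genes; median 0.12). Their list median ran from -0.92 in replicate 2 to 1.12 in replicate 3 at 48 h and from -1.03 to 1.10 in vehicle. Of 33 urea cycle and amino acid breakdown genes 20 had a negative difference (median -0.09), where 6794 of all 12164 genes did. At an unadjusted p under 0.05, 5 were higher (15.2%) and 2 lower (6.06%). Of 21 tested acute phase genes 1 was higher (4.76%, below the 8.13% of all genes; median 0.64). The list median ran from -0.78 to 1.10 among the vehicle libraries. Of 18 genes of gluconeogenesis and glycogen 2 were higher (11.1%) and 0 lower (median 0.31).

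Fetal and tumour-linked genes did not share a direction. Of 17 tested oncofetal genes 1 was higher (5.88%, below the 8.13% of all genes) and 3 lower (17.6%) at an unadjusted p under 0.05 (median 0.02). Gpc3, the surface proteoglycan glypican-3 used as a marker of liver cancer, was at 3.06, 4.51 and 3.23 FPKM in vehicle and 21.4, 40.0 and 23.8 FPKM at 48 h (2.64 ± 0.59, adjusted p = 0.0607 by limma). Cldn6, a fetal tight junction protein, was lower at 75.7, 95.6 and 68.1 FPKM against 27.6, 48.8 and 23.7 FPKM (-1.29 ± 0.50), beside L1td1 and Crabp2 above. Afp, alpha-fetoprotein, was at 1291, 1869 and 1075 FPKM against 3415, 2402 and 1294 FPKM, with overlap (0.68 ± 0.57), and H19 differed by 0.02 ± 0.45. Gpc3 was separate from vehicle in every library and so was Cldn6, in opposite directions. Krt7, a keratin of bile duct cells, was at 5.60, 7.69 and 7.91 FPKM against 0.280, 1.71 and 0.834 FPKM (-2.11 ± 0.49, adjusted p = 0.0622 by limma), while Epcam (0.42 ± 0.48) and Spp1 (-0.50 ± 0.62) overlapped. Krt7 was the 1 of 6 tested bile duct markers past an unadjusted p of 0.05, and it was tested through its vehicle values only.

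Lysosome genes were higher mainly in 48 h replicate 1. Of 40, 7 (17.5%, where 8.13% of all genes were) were higher at an unadjusted p under 0.05 and 0 lower. The list median was 0.36, with 0.75, 0.28 and 0.02 in the 3 libraries, and the summed level was 5304, 3244 and 2091 FPKM against 1866 to 2474 FPKM in vehicle, so replicate 3 lay within the vehicle range. The count was 4 without 48 h replicate 1 and 11 without replicate 3. Beside Ctss they included Scarb2, a lysosomal membrane protein, at 8.54, 7.36 and 7.24 FPKM in vehicle and 25.4, 15.5 and 16.5 FPKM at 48 h (1.18 ± 0.31), and Lipa, the acid lipase, at 42.6, 34.3 and 25.4 FPKM against 96.4, 57.7 and 71.6 FPKM (1.12 ± 0.39). Of 34 autophagy genes 2 were higher (5.88%, below the 8.13% of all genes) and 1 lower. They were Fbxo32, a ubiquitin ligase of muscle wasting, at 0.271, 0.424 and 0.215 FPKM against 8.84, 3.50 and 1.36 FPKM (1.86 ± 0.51) and tested through these 48 h values only, the kinase Ulk2 (0.63 ± 0.21), and Atg9b (-0.88 ± 0.29). Of 21 tested stellate cell and fibroblast genes 6 were higher (median 0.59), or 3 without vehicle replicate 1 or 48 h replicate 1. Pdgfrb, the receptor that marks stellate cells, was at 2.68, 3.56 and 1.35 FPKM against 14.1, 8.99 and 6.13 FPKM (1.59 ± 0.35, adjusted p = 0.0590 by limma). ERK pathway output genes had a positive difference in 12 of 12 tested (median 0.49), where 5370 of all 12164 genes did. Of the 12, 2 (16.7%) were higher at an unadjusted p under 0.05, and 2 others passed the filter through the 48 h libraries only. Dusp6, the phosphatase that ERK induces, was at 4.76, 4.23 and 3.74 FPKM against 16.5, 8.82 and 8.15 FPKM (1.15 ± 0.53).

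**Figure D5:**
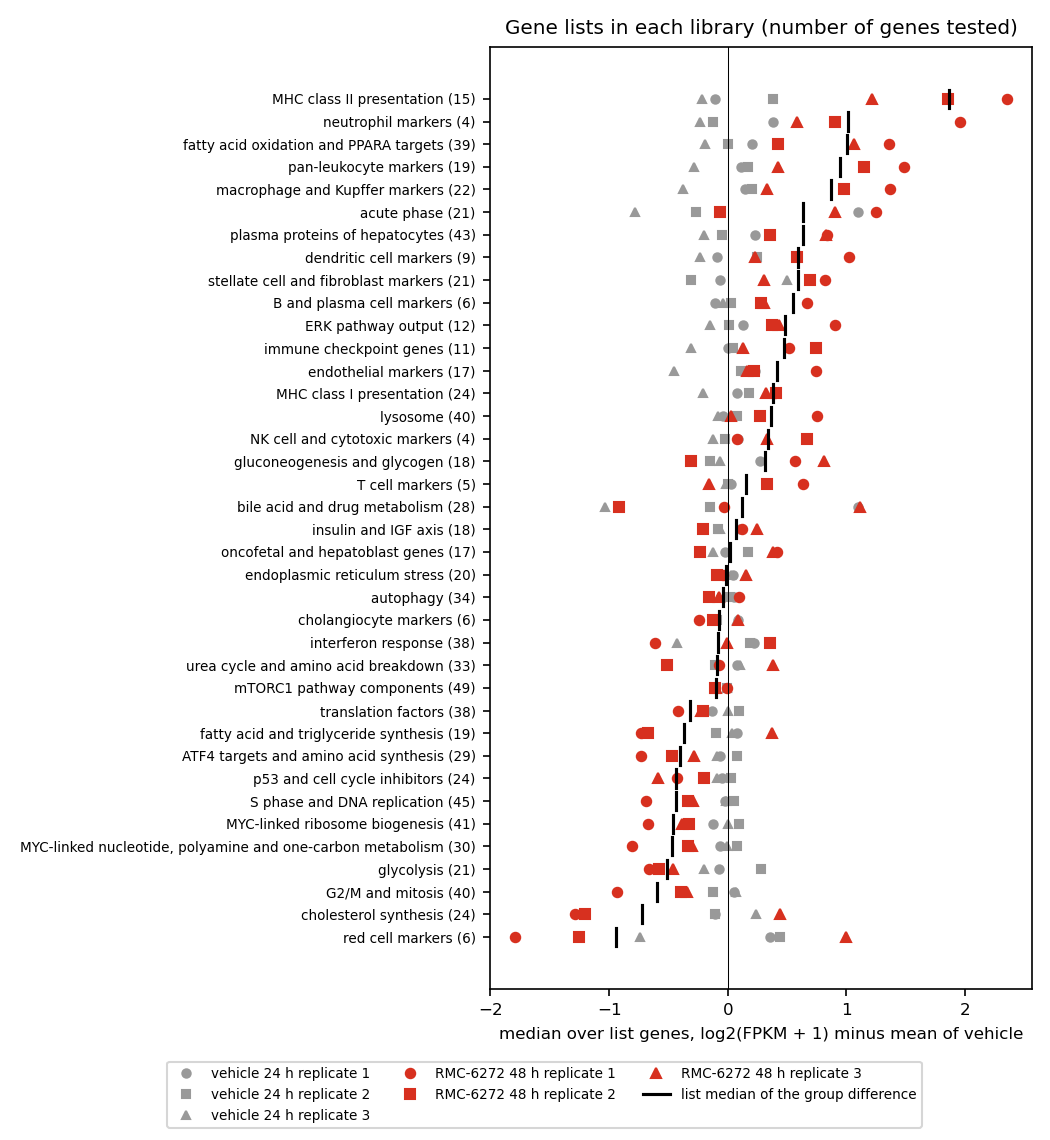
Median over each of the 38 gene lists of log2(FPKM + 1) minus the vehicle mean, for each vehicle 24 h (grey) and RMC-6272 48 h (red) library; circles, squares and triangles are replicates 1, 2 and 3, the black bar is the list median of the group difference, and the number of genes tested is in brackets. MHC class II stands highest with red points at 1.21 to 2.36, and the red points of cholesterol synthesis split into -1.28 and -1.21 for replicates 1 and 2 and 0.44 for replicate 3.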

How the data were processed

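RNA from frozen liver tumours was sequenced, and the authors deposited 1 table of FPKM values for 54532 entries and 24 libraries. Per the submitters' processing notes STAR 2.5 and HTSeq 0.6.1 were used with the build mm9; how they were combined is not given in the sources used here. Columns were matched to libraries through the description code. In 1006 entries the identifier and the name belonged to different genes, 991 of them among the first 1200, and steps of whole reads fitted the name, so genes were taken by name. 27 entries named as a number and 102 sharing a name were left out, leaving 54403. With exon lengths of GENCODE vM21, 98.2% to 98.6% of the low FPKM values (up to 20 reads) of the 6 libraries were whole reads within 0.02, which gave the depths. In the 4 libraries of doxycycline and RMC-4627 at most 4.08% were, so their depth was not recovered. Why these 4 differ in this way was not tested. They enter the comparisons through the shared spread only. No pair of replicates agreed within sampling noise.

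limma 3.58.1 (R 4.3.3, with trend) was fitted to log2(FPKM + 1) of all 24 libraries with 1 mean per group, two-sided, over 12164 genes, with Benjamini-Hochberg adjustment. The fit was tested on simulated data with independent normal noise of equal spread in all groups. That setting holds no outlying library, so it cannot show how the fit behaves where single libraries move the counts. Tables were made with Python 3.11.15 and pandas 2.3.3. The genes named are those with an adjusted p under 0.05, up to 12 per direction with the smallest p, no overlap, a log2 difference of at least 1 and a mean of at least 5 FPKM, up to 6 per list by p, any member of 4 lists, and 8 fixed genes. Of the second set, unnamed gene models and some others are not described. Some list genes that the rule takes are not reported here. The 38 lists hold 997 genes, of which 993 are in the table and 862 were tested. The comparison, its members and the lists were chosen with earlier results of these data known. Replicate numbers were not taken to pair the libraries. The alternatives were other scalings, filters, pseudocounts and sets of libraries, a block for the replicate number or the code, and leaving out each library. A looser threshold, leaving out 24 h and 72 h libraries, and the list counts under each setting were chosen after seeing the data. Promoter sequences are from RefSeq on GRCm38.p6 and were matched by symbol.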

Additional observations from a re-analysis of the deposited data

How the results depend on the processing

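Of 1808 values of 113 named genes under an alternative 6 changed direction, all of genes whose difference was small against its error. H19 was at -0.074 with the code as a random block and from -0.23 to 0.19 with 1 library left out, Igf2 from -0.18 to 0.86, Insr from -0.018 to 0.14 and Rfxank from -0.0027 to 0.20. Of 608 list medians 594 moved by less than the spread between libraries and 14 by more. The counts of genes past the threshold, 4 higher and 4 lower, moved with the setting. They were 129 and 77 at an adjusted p under 0.10, 7 and 9 in a fit of 20 libraries without doxycycline and RMC-4627, 120 and 70 with the code as a random block, and 47 and 55 after quantile normalization. The code block had a consensus correlation of -0.104, 1 value over all genes tested and 24 libraries. It cannot show whether libraries of 1 code were alike among these 6. With a pseudocount of 0.1 the counts past the threshold were 0 and 1, and with median-ratio scaling 2 were higher. Leaving out 1 library at a time gave 0 to 199 higher and 0 to 136 lower. At an unadjusted p under 0.05, no filter on low values gave 1700 higher and 1418 lower, and the lower count was 1588 in the fit of 20 libraries and 1578 in a fit of the 6 libraries alone. Leaving out 1 library gave 440 to 1186 higher and 363 to 1118 lower. For 48 h against 24 h the count of 0 became 69 with 20 libraries, 12 with no filter and 13 after quantile normalization, and 0 to 115 with 1 library left out. For 48 h against 72 h it became 5 with no filter, 3 with the pseudocount of 0.1 and 0 to 470 with 1 library left out. In the fit of the 6 libraries alone, list counts at an unadjusted p under 0.05 also moved to 10 lower for glycolysis, 14 lower for ATF4 targets, 7 higher for MHC class I, 21 higher for plasma proteins and 23 higher for fatty acid oxidation. The fit of 20 libraries gave 10 lower for glycolysis, 11 lower for translation factors and 11 higher for lysosome, the code block 9 lower for cholesterol synthesis, and quantile normalization 7 lower for nucleotide metabolism and 2 lower for translation factors. The cause was not tested.

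With the replicate number as a block, 19 genes were higher and 20 lower, against 972 and 904 at an unadjusted p under 0.05. The labels do not say that the numbers pair the libraries, so the numbers were treated as shared names only. Deviations of same-numbered libraries from their group means correlated at -0.04, 0.12 and -0.22. With 3 libraries in each group these correlations cannot show whether libraries were paired. Vehicle replicate 2 correlated best with its own number, and vehicle replicates 1 and 3 with another.

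With 3 libraries against 3, vehicle collected at 24 h alone and no code shared between vehicle and drug, time, code and treatment cannot be told apart. Depth was similar in the 6 libraries, and values under 1 FPKM rest on fewer reads than higher values do in a gene of the same length.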
